A study of Mus musculus with 6 samples.

Results

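The mitochondrial genome of the mouse is a circle of 16299 bp in build mm9, and it is described here in 326 windows of 50 bp, the last of 49 bp. All windows of the circle were taken, out of 52838046 windows of that size on chromosomes 1 to 19, X, Y and the mitochondrial genome, whatever they held. The cells were embryonic stem cells of the C57Bl/6 strain, cultured with LIF and no feeder layer, and no library came from treated or mutant cells. The libraries were 1 of H2A.B ChIP, with a home-made rabbit antibody against this histone variant, and 1 of IgG ChIP, with rabbit IgG. The MeDIP libraries were 3 of 5mC, made with the mouse monoclonal antibody 33D3 against 5-methylcytosine, and 1 of IgG MeDIP, made with mouse IgG. The descriptions of both IgG libraries name the antibody of the H2A.B library, but their titles and antibody fields give IgG, which was followed here. ChIP used crosslinked chromatin sheared to 200 to 400 bp, and MeDIP used DNA sheared to 100 to 400 bp and denatured before the pull-down.

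Mitochondrial DNA is present in many copies per cell and is packed by the protein TFAM into nucleoids, not by histones. Histone H2A has a shortened variant, H2A.B, which is found in nucleosomes of the nucleus. Whether mitochondrial DNA carries 5-methylcytosine has been debated for a long time. The circle encodes the RNAs of the mitochondrial ribosome, a set of tRNAs and subunits of respiratory complexes I, III, IV and V. Its non-coding control region holds the promoters of both strands and the origin of heavy-strand replication. The reference sequence is by convention that of the light strand, so plus-strand reads carry light-strand sequence, and the complementary heavy strand is the one rich in G.

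RefSeq's table for GRCm38.p6 gives 13 protein-coding genes, 2 rRNA genes and 22 tRNA genes on the circle. That assembly is not the build of the reads, so only its names and gene order were used and no gene was placed by coordinate. The circle was cut into 6 arcs with round limits, set from general knowledge of the mouse gene order. The rRNA arc (positions 1 to 2700) is meant for mt-Rnr1 and mt-Rnr2, the small and large ribosomal RNAs. The ND1 to ND2 arc (2701 to 5300) is meant for these subunits of complex I and the tRNA genes around them. The COX1 to COX3 arc (5301 to 9400) is meant for the subunits COX1, COX2 and COX3 of complex IV and ATP8 and ATP6 of complex V. The ND3 to ND6 arc (9401 to 14100) is meant for ND3, ND4L, ND4, ND5 and ND6 of complex I. The CYTB arc (14101 to 15400) is meant for CYTB of complex III, and the control region arc covers the last 18 windows (15401 to 16299).

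Reads were counted once per position of their 5′ end and strand, and these are called distinct reads. H2A.B ChIP had 3173 reads on the circle (2774 distinct), and IgG ChIP had 1968 (1522 distinct). The 5mC libraries had 384 reads (317 distinct) in replicate 1, 1539 (1020 distinct) in replicate 2 and 607 (409 distinct) in replicate 3, and IgG MeDIP had 66 (61 distinct). The libraries held 8056333 distinct reads in all for H2A.B, 540825 for IgG ChIP, 1397289, 1894305 and 803989 for the 5mC replicates and 124218 for IgG MeDIP. H2A.B hit 8.51% of the 32598 possible positions and strands, the most of any library, so counting distinct reads was far from saturation. H2A.B, IgG ChIP and IgG MeDIP have no replicate, and all intervals cover counting error only. Where the 5mC libraries came from is not stated, so their spread may be technical.

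The read names tie the libraries to 2 flow cells. H2A.B ChIP and 5mC replicate 1 came wholly from lane 3 of the first and had reads 42 bp long on the circle. The other libraries had 50 bp reads from the second flow cell. 5mC replicate 2 and IgG MeDIP shared its lane 1, and 5mC replicate 3 and IgG ChIP its lane 2. H2A.B and IgG ChIP thus differ in antibody, flow cell and read length, which cannot be told apart. The list of 5mC replicate 2 was made of 4 blocks, each sorted on its own, and the third was the whole IgG MeDIP list, which was removed. The list of 5mC replicate 3 was made of 3 such blocks, of 1219457, 136249 and 219000 reads.

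The first comparison asked how much of each library was mitochondrial. Mitochondrial DNA made up 0.0344% of the distinct reads of H2A.B ChIP (95% interval 0.0332 to 0.0357), against 0.281% in IgG ChIP (0.268 to 0.296). H2A.B thus stood at 0.122 times IgG ChIP (95% interval 0.115 to 0.130). This was below the ratio of each of the 21 nuclear chromosomes, of which chromosome Y was the next lowest at 0.374. It was also below the ratio of each of the 25574 nuclear 100 kb windows kept, whose lowest value was 0.177 and whose median was 1.01. Windows in which any library exceeded a set multiple of its own median had been left out, which removes those richest in IgG ChIP reads. The circle, at 464 times the mean nuclear density in IgG ChIP, would itself not pass. The chromosome 1 stretch described below stood at 0.138, under that lowest value. The rank thus holds for the kept windows only. A share is relative, so less mitochondrial DNA and more nuclear DNA in a library cannot be told apart.

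The 5mC libraries held 0.0227% (0.0203 to 0.0253), 0.0538% (0.0506 to 0.0573) and 0.0509% (0.0461 to 0.0561) of their distinct reads on the circle in replicates 1, 2 and 3. IgG MeDIP held 0.0491% (0.0376 to 0.0631). Replicates 1, 2 and 3 stood at 0.462, 1.10 and 1.04 times IgG MeDIP, a mean of 0.865 ± 0.350 (SD, n = 3). Replicate 1 lay below IgG MeDIP beyond its interval, while replicates 2 and 3, which shared a flow cell with it, lay within it. The 3 blocks of the replicate 3 list differed, at 0.0392% (0.0340 to 0.0449), 0.0883% (0.0720 to 0.107) and 0.0557% (0.0454 to 0.0677). Its second block was thus above the interval of IgG MeDIP. Blocks 1, 2 and 4 of the replicate 2 list held 0.0524%, 0.0506% and 0.0605%, within that interval. In an exact permutation test, two-sided, the shares of 5mC and IgG MeDIP gave p = 1, and the smallest p that the 4 relabelings allow is 0.25. The mean without replicate 1 was 1.07, on the other side of 1.

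IgG ChIP stood apart from all libraries. Its share was 5.53 times (4.96 to 6.18) that of 5mC replicate 3, which came from the same lane, and 5.73 times (4.44 to 7.53) that of IgG MeDIP. On the first flow cell H2A.B was at 1.52 times (1.35 to 1.71) the share of its lane mate, 5mC replicate 1. The 2 lowest shares of the 6 libraries were thus those with 42 bp reads. The part of flow cell and read length in these shares was not tested.

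Per kilobase, the circle was covered far more densely than the nuclear windows kept. Its density was 54.9 times the nuclear mean in H2A.B, against 464 times in IgG ChIP. It was 37.4, 87.4 and 83.2 times in 5mC replicates 1, 2 and 3, against 89.3 times in IgG MeDIP. These multiples describe how many mitochondrial fragments a library held for each nuclear stretch of like length, and are no measure of copy number per cell.

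**Figure D1:**
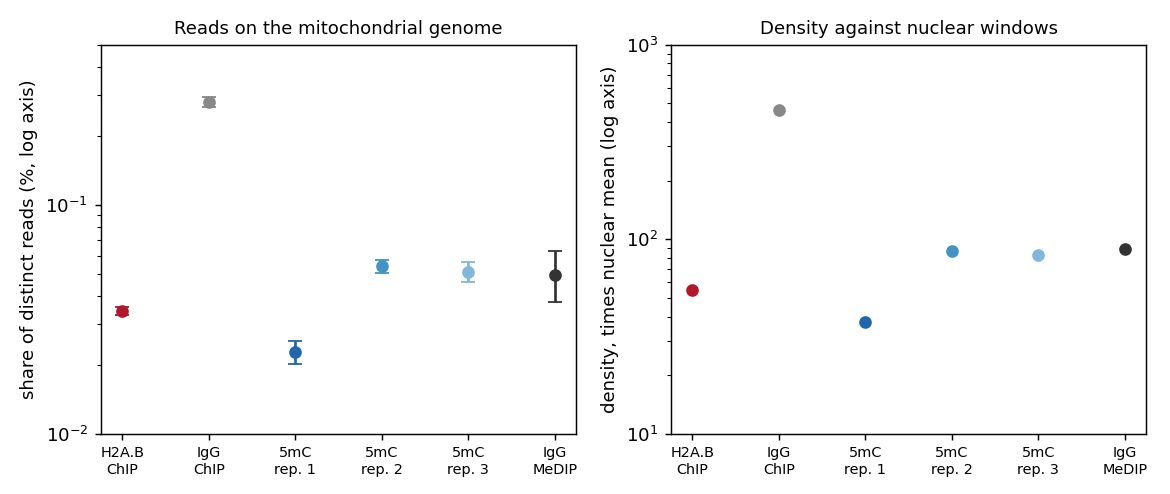
Left, the share of distinct reads on the mitochondrial genome (%, log axis) in each library, with exact 95% binomial intervals; right, the density of distinct reads there as a multiple of the mean density of nuclear 100 kb windows (log axis). IgG ChIP stands above all others at 0.281%, against 0.0344% for H2A.B, and 5mC replicate 1 is the lowest at 0.0227%.

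A long nuclear copy of part of the circle is known on chromosome 1. The 5000 bp richest in ChIP reads between 24 and 25 Mb of that chromosome lay at chr1:24618101-24623100 (mm9). RefSeq's GRCm38.p6 table lists Gm10925, a pseudogene with the synonym mt-Atp6, on the same chromosome. The stretch was taken as this copy from its place and density, without a sequence to compare. It held 579 distinct reads of H2A.B, against 282 of IgG ChIP, and 64, 225 and 75 of 5mC replicates 1, 2 and 3, against 8 of IgG MeDIP. H2A.B stood there at 0.138 times IgG ChIP (0.119 to 0.160), near the value of the circle. Over the rest of the same Mb of chromosome 1 it stood at 0.720 times (0.626 to 0.832), outside that interval.

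The circle had a sparse stretch of its own. The 5 kb with the fewest ChIP reads were positions 6001 to 11000, most of them in the arc meant for the complex IV and complex V subunits. Density there was 0.652 times that of the rest of the circle in H2A.B, against 0.693 in IgG ChIP, and 0.688, 0.572 and 0.703 in 5mC replicates 1, 2 and 3, against 0.391 in IgG MeDIP, which had 9 reads there. The stretch was chosen on the ChIP libraries, so their values are a description. The 5mC libraries and IgG MeDIP were not used to choose it, and all 4 were below 1. Whether the stretch of chromosome 1 matches this part of the circle was not tested. Whether reads with several matches were placed at 1 site is not given in the sources used here.

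The second comparison asked how reads were spread along the circle, in which H2A.B and IgG ChIP had a similar course. Both were highest in the CYTB arc, at 1.58 times the even level for H2A.B (95% interval 1.42 to 1.74) and 1.43 times for IgG ChIP (1.23 to 1.64). Both were below the even level in the COX1 to COX3 arc, at 0.913 (0.851 to 0.977) and 0.849 (0.768 to 0.934). The rRNA arc was at 0.962 (0.881 to 1.05) in H2A.B, against 0.785 (0.686 to 0.894) in IgG ChIP. Its ratio, with each library scaled to its own reads on the circle, was 1.22 (1.03 to 1.46), and it was the only arc with an interval above 1. The other 5 arcs had ratios from 0.866 to 1.11 with intervals that included 1.

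Scaled to the whole library, H2A.B was below IgG ChIP everywhere on the circle at a resolution of 500 bp. The ratio of library shares ran from 0.0589 to 0.176 over the 33 windows of 500 bp, and the upper bound of the 95% interval was below 1 in all 33 (100%), against 9.59% of nuclear 100 kb windows. In windows of 50 bp the upper bound was below 1 in 221 of 326 (67.8%). The highest ratio among the 315 windows with an IgG ChIP read was 0.940, and 8 windows had reads of H2A.B and none of IgG ChIP. The windows of different size hold different numbers of reads, so these percentages are not on 1 scale.

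**Figure D2:**
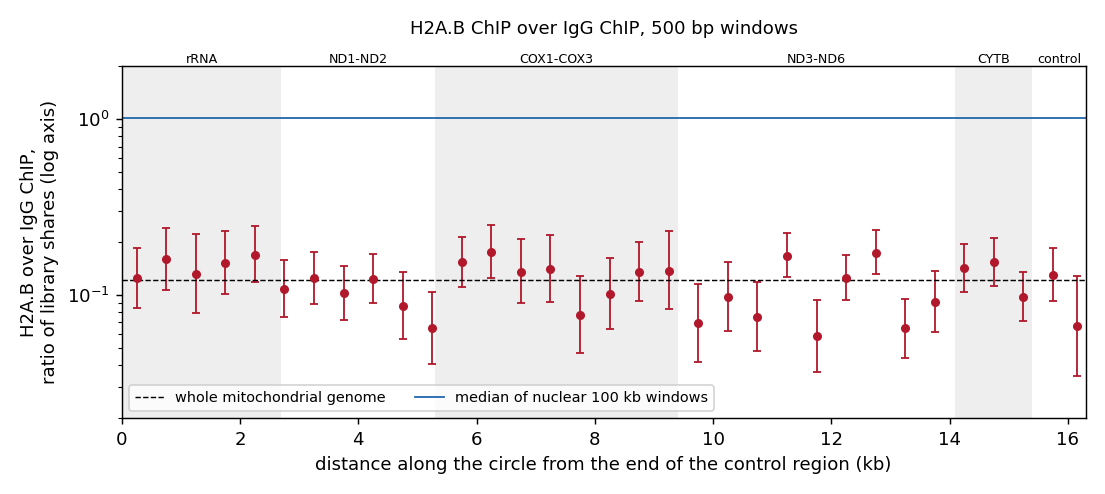
Ratio of the library shares of H2A.B ChIP and IgG ChIP (log axis) in windows of 500 bp, by distance from the end of the control region (kb), with exact 95% intervals; grey bands alternate the 6 arcs. All 33 points lie between 0.0589 and 0.176, below the median of nuclear 100 kb windows at 1.01.

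Within the circle, single 50 bp windows were called by a rule of size, a ratio of at least 1.5 between shares of the circle's reads with an exact 95% lower bound above 1. H2A.B was above IgG ChIP in 9 windows (2.76%) and below it, by the mirrored rule, in 12 (3.68%). Bounds at 95% let up to a few percent of windows pass on counting error alone. How many of the 9 and 12 windows did so was not tested. The same rule on library shares called 9.78% of nuclear 100 kb windows higher and 9.37% lower. Those windows held a median of 279 reads of H2A.B and 19 of IgG ChIP, against means of 8.51 and 4.67 per 50 bp window. With unlike read numbers and scaling, the nuclear and mitochondrial percentages are not on 1 scale. The count of windows was sensitive to the processing, and with all reads as deposited the same rule gave 26 and 31. With reads placed by their midpoint it gave 5 higher windows, and among windows with at least 10 ChIP reads it gave 7 lower ones.

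Most of the called windows lay in the ND3 to ND6 arc, with 5 of the 9 higher and 9 of the 12 lower, although it holds 28.8% of the circle. Whether the calls favoured this arc was not tested. Some of its lower windows held few ChIP reads, such as 11751 to 11800 with 1 of H2A.B and 5 of IgG ChIP. Position 11001 to 11050 had 18 distinct reads of H2A.B and none of IgG ChIP, and position 10051 to 10100 had 16 and none. The pair of neighbouring windows from 11101 to 11200 held the most H2A.B reads on the circle, 39 and 38, against 9 and 7 of IgG ChIP. Their ratios were 2.38 (1.13 to 5.58) and 2.98 (1.31 to 7.90). In the rRNA arc, position 1951 to 2000 had 23 reads of H2A.B, against 3 of IgG ChIP, a ratio of 4.21 (1.27 to 21.9). Position 12251 to 12300, in the arc of the complex I subunits, had 14 against 1, a ratio of 7.68 (1.17 to 325).

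Of the 5 lower windows with the lowest upper bounds, which are not those with the lowest ratios, 3 lay toward the end of the same arc. Position 13901 to 13950 had 1 distinct read of H2A.B, against 7 of IgG ChIP, a ratio of 0.0784 (0.00174 to 0.610), and is not among the 7 windows left by that minimum of 10 reads. Its neighbour at 13851 to 13900 had 5 against 13, a ratio of 0.211 (0.0589 to 0.631), and position 13151 to 13200 had 3 against 10, a ratio of 0.165 (0.0291 to 0.639). Further back in the arc, position 11351 to 11400 had 4 against 11, a ratio of 0.1995 (0.0463 to 0.673), and position 4601 to 4650, in the ND1 to ND2 arc, had 2 against 8, a ratio of 0.137 (0.0142 to 0.687). In windows of 500 bp, 5 were lower by the same rule (15.2%) and 0 higher, and over all 33 the ratio of circle shares ran from 0.482 at 11501 to 12000 to 1.44 at 6001 to 6500.

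The windows called by this rule were also counted in the MeDIP libraries, which it did not use. The 12 lower windows held 28, 84 and 24 distinct reads of 5mC replicates 1, 2 and 3, or 2.40, 2.24 and 1.59 times the mean window of each library. IgG MeDIP held 4 reads there, 1.78 times its mean, and the IgG ChIP level was itself 1.68 times its mean. The 9 higher windows held 7, 23 and 16 reads of 5mC, or 0.7999, 0.817 and 1.42 times the mean, against 2 reads of IgG MeDIP. For replicate 3 the values of both sets were close, and the difference was not tested. Of the 12 lower windows, 5 held fewer than 10 ChIP reads. Across the 326 windows Spearman's rho of IgG ChIP with 5mC replicates 1, 2 and 3 was 0.108, 0.326 and 0.2085, and the part of this shared profile was not tested.

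H2A.B had the highest variance over mean of window counts along the circle. The variance of its counts over 50 bp windows was 5.00 times their mean, with a median of 7 reads and a range of 0 to 39. In IgG ChIP it was 1.97 times, with a median of 4 and a range of 0 to 17, and H2A.B and IgG ChIP had no read in 7 and 11 windows. The 5mC libraries were at 1.53, 2.38 and 1.35 times, and IgG MeDIP at 1.08 times, close to the value of 1 that even sampling gives. This measure grows with depth, and H2A.B was the deepest library on the circle, so it does not rank the libraries by evenness. IgG MeDIP had no read in 273 windows, and since a 0 is compatible with up to 3 reads, more than its highest window of 2, its single windows could not be compared.

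**Figure D3:**
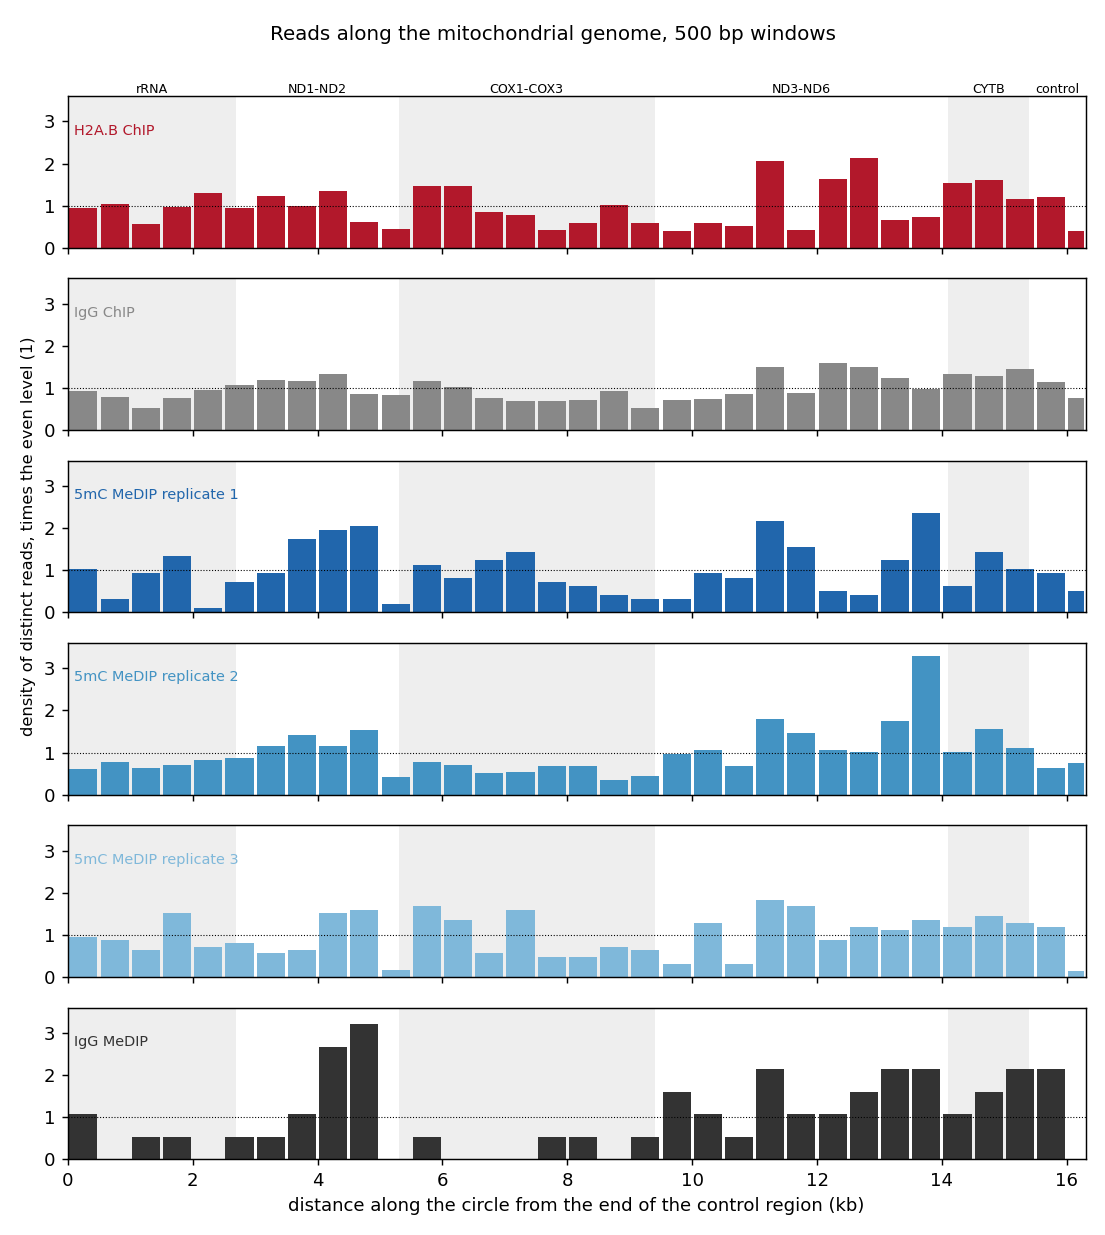
Density of distinct reads in windows of 500 bp, as a multiple of the even level over the mitochondrial genome, by distance from the end of the control region (kb), with 1 panel per library; grey and white bands are the arcs. H2A.B and IgG ChIP share peaks in the ND3 to ND6 and CYTB arcs, and the MeDIP libraries are low around the start of the COX1 to COX3 arc, where replicates 1 and 3 held 2 reads each.

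The third comparison asked where 5mC reads lay relative to IgG MeDIP. The 5mC libraries were on average densest in the ND3 to ND6 arc, at 1.23 ± 0.177 times the even level (SD, n = 3), and IgG MeDIP was at 1.48 there (95% interval 1.04 to 1.94). They were sparsest in the COX1 to COX3 arc, at 0.766 ± 0.171 (SD, n = 3), against 0.261 in IgG MeDIP (0.0722 to 0.634), which had 4 reads in it. The rRNA arc stood at 0.819 ± 0.126 (SD, n = 3), against 0.495 in IgG MeDIP (0.164 to 1.09). The ND1 to ND2 arc stood at 1.14 ± 0.230 (SD, n = 3), against 1.44 (0.824 to 2.23), and the CYTB arc at 1.13 ± 0.229 (SD, n = 3), against 1.44 (0.594 to 2.79). In each of these 5 arcs the 5mC mean and IgG MeDIP lay on the same side of the even level, but replicate 1 was at 0.870 in the CYTB arc and replicate 3 at 0.904 in the ND1 to ND2 arc, below it.

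The fullest single windows of 5mC replicates 1, 2 and 3 all lay in the ND3 to ND6 arc. Position 11351 to 11400 had 7, 17 and 5 distinct reads in replicates 1, 2 and 3, against 2 of IgG MeDIP, the highest count of that library in any window. Position 13551 to 13600, near the end of the arc, had 8, 15 and 3 reads against none of IgG MeDIP. Position 13851 to 13900 had 4, 13 and 4 against none, and position 4001 to 4050, in the ND1 to ND2 arc, had 4, 9 and 5 against none. Since IgG MeDIP had no read in 273 windows of the circle, its count of none in these windows shows no difference from 5mC.

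In 9 windows each of the 5mC libraries reached at least 2 times its own mean. They held 37, 94 and 35 reads of replicates 1, 2 and 3, the libraries on which they were chosen. IgG MeDIP had 4 reads in them, 2.38 times its mean, IgG ChIP was at 1.76 times and H2A.B at 0.810 times. Of the 9 windows 6 lay in the ND3 to ND6 arc or the CYTB arc, which hold 28.8% and 7.98% of the circle. None lay in the rRNA or control region arc, which hold 16.6% and 5.52%. With 9 windows, their absence from so short an arc as the control region cannot be read as a lack. Whether the windows favoured any arc was not tested. The 4 reads of IgG MeDIP lay in 2 of the 9 windows, 4551 to 4600 and 11351 to 11400, and the other 7 had none. Most windows of the circle had no read of that library, so its single windows could not be compared here either.

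The stretch from 5001 to 5500, around the border of the ND1 to ND2 and COX1 to COX3 arcs, held the fewest MeDIP reads of all 33 windows of 500 bp. RefSeq's order places a cluster of tRNA genes between ND2 and COX1, and the origin of light-strand replication is known to lie within it. Neither was placed by coordinate here, and a link to the low counts was not tested. The 5mC libraries had 2, 13 and 2 reads there, against 0 of IgG MeDIP, and the preceding 500 bp had 20, 48 and 20 against 6. H2A.B had 38 reads in the same 500 bp, against 39 of IgG ChIP, or 0.4465 and 0.835 times the even level. The ratio of circle shares was 0.535 (0.333 to 0.858), so this window is among the 5 of 500 bp called lower.

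The profiles of libraries were compared across windows, which share library and depth and are no replicates. In 32 full windows of 500 bp Spearman's rho was 0.792 between H2A.B and IgG ChIP, with Pearson's r of 0.801. Between 5mC libraries rho was 0.533 for replicates 1 and 2, 0.649 for replicates 1 and 3 and 0.477 for replicates 2 and 3. IgG MeDIP reached 0.512, 0.711 and 0.419 with the same libraries. The highest value of IgG MeDIP was that with replicate 2, its lane mate, above the value of replicate 2 with any other 5mC library. H2A.B reached 0.0718, 0.286 and 0.438 with the 5mC libraries, and IgG ChIP reached 0.218, 0.595 and 0.380. In windows of 50 bp rho was lower throughout, at 0.401 for H2A.B with IgG ChIP and from 0.193 to 0.245 between 5mC libraries.

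Some libraries also shared exact positions. Of the 61 positions of IgG MeDIP, 9 (14.8%) were also in replicate 2 after the copied block was removed, or 0.882% of those of replicate 2, which covered 3.13% of all positions. IgG MeDIP also shared 7 (11.5%) with IgG ChIP, which covered 4.67% of all positions. With H2A.B, which covered 8.51% of all positions, IgG MeDIP shared 1 (1.64%). It shared 1 with replicate 1 and 2 (3.28%) with replicate 3, which covered 0.97% and 1.26%. H2A.B and replicate 1 shared 40, or 12.6% of those of replicate 1. H2A.B shared 80 with replicate 2 and 38 with replicate 3, or 7.84% and 9.29% of theirs. IgG ChIP shared 7.89%, 6.57% and 7.82% of the positions of replicates 1, 2 and 3. Replicates 1 and 2, from different flow cells, shared 18, or 5.68% of those of replicate 1. Replicates 2 and 3 shared 32 positions, or 3.14% of those of replicate 2 and 7.82% of those of replicate 3. Replicates 1 and 3 shared 4, or 1.26% of those of replicate 1 and 0.978% of those of replicate 3. H2A.B and IgG ChIP shared 182, or 6.56% of those of H2A.B and 12.0% of those of IgG ChIP, where H2A.B covered 8.51% of all positions.

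The fourth comparison set the control region against the rest of the circle. The control region had 134 distinct reads of H2A.B, a density of 0.876 times the even level (95% interval 0.737 to 1.03), against 83 of IgG ChIP at 0.989 times (0.792 to 1.22). Relative to the rest of the circle the density of H2A.B was 0.880 times that of IgG ChIP (0.659 to 1.18), a difference within counting error. With all reads as deposited the value was 0.663 (0.519 to 0.847). IgG ChIP had 138 reads for its 83 positions there, 15 of them at position 15934 on the minus strand, while H2A.B had 151 for 134.

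The 5mC libraries had 16, 40 and 19 distinct reads in the control region. Their densities were 0.915 (0.528 to 1.46), 0.711 (0.511 to 0.961) and 0.842 (0.511 to 1.30) times the even level in replicates 1, 2 and 3, against 1.49 (0.492 to 3.28) in IgG MeDIP, which had 5 reads. Relative to the rest of the circle, 5mC was at 0.595, 0.457 and 0.546 times IgG MeDIP, a mean of 0.533 ± 0.0700 (SD, n = 3). All 3 libraries lay below IgG MeDIP. The exact permutation test, two-sided, gave p = 0.25, the smallest that 3 libraries against 1 allow, and the interval of IgG MeDIP included each of the 5mC values.

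**Figure D4:**
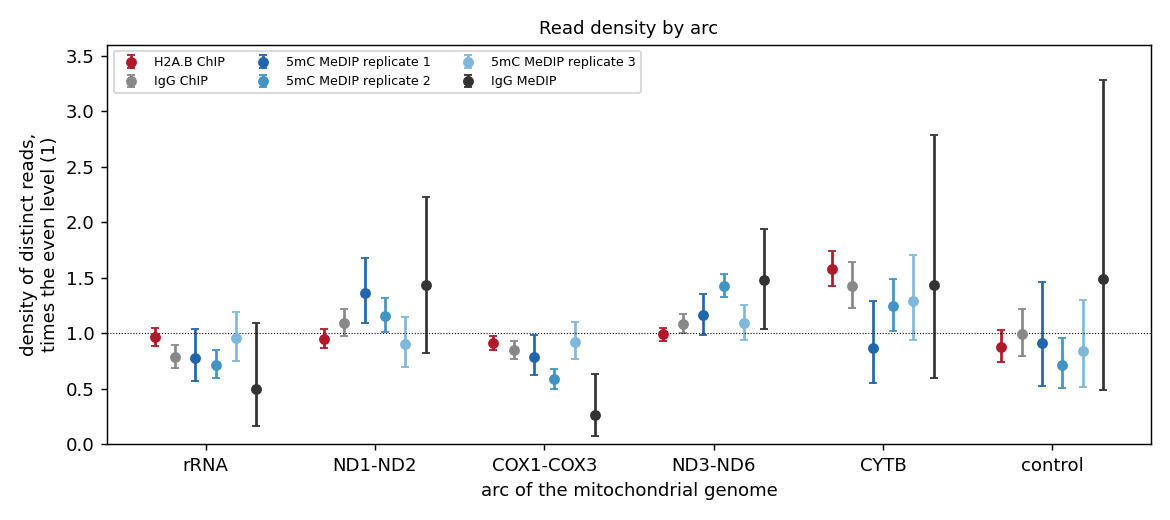
Density of distinct reads in the 6 arcs as a multiple of the even level, with exact 95% binomial intervals, for each library. In the CYTB arc H2A.B is at 1.58 and IgG ChIP at 1.43, and in the control region the 5mC libraries are at 0.915, 0.711 and 0.842, against 1.49 with a wide interval in IgG MeDIP.

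The last comparison concerned the strand of the reads, in which 3 of the 4 MeDIP libraries leaned to the plus strand and 5mC replicate 3 was near even. On the plus strand lay 65.3% of the distinct reads of 5mC replicate 1 (95% interval 59.8 to 70.5), 73.2% of replicate 2 (70.4 to 75.9) and 52.1% of replicate 3 (47.1 to 57.0), against 77.05% of IgG MeDIP (64.5 to 86.8). The 5mC mean was 63.5% ± 10.7 (SD, n = 3), and the difference from IgG MeDIP averaged -13.5 ± 10.7 percentage points. Replicates 1 and 2 lay within the interval of IgG MeDIP and replicate 3 below it. The exact permutation test, two-sided, of the 5mC libraries against IgG MeDIP gave p = 0.5, and 0.25 is the smallest it can give. A lean to the plus strand was thus also present in the IgG library.

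The blocks of the MeDIP lists also differed in strand. In replicate 2 the plus strand held 77.3% (73.5 to 80.8) of the distinct reads of the first block and 80.25% (75.4 to 84.5) of the second. In the fourth block it held 53.7% (46.6 to 60.6). In replicate 3 the 3 blocks had 49.8% (42.8 to 56.8), 57.4% (47.2 to 67.2) and 51.96% (41.8 to 62.0). A single list thus held blocks with and without the lean, with the fourth block of replicate 2 near the blocks of replicate 3.

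In every library the plus-strand share was lower on the autosomes than on the circle, though in H2A.B within the interval of the circle. On the autosomes the plus strand held 54.3%, 44.7% and 44.5% of the distinct reads of 5mC replicates 1, 2 and 3, against 41.7% in IgG MeDIP, and 52.7% in H2A.B, against 45.1% in IgG ChIP. The 2 libraries of the first flow cell were above 50% there and the 4 of the second below it. In 5mC replicates 1 and 2 and in IgG MeDIP the lean was largest in the ND3 to ND6 arc, though not in replicate 3. There the plus strand held 74.5%, 79.8% and 51.9% in replicates 1, 2 and 3, against 88.5% in IgG MeDIP. At 13501 to 14000, 98 of 103 reads of replicate 2 were on the plus strand, with 19 of 23 in replicate 1, 12 of 17 in replicate 3 and 4 of 4 in IgG MeDIP.

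H2A.B and IgG ChIP were close over the whole circle, with 53.4% of distinct reads on the plus strand in H2A.B (51.5 to 55.3), against 56.0% in IgG ChIP (53.4 to 58.5). Their difference was -2.55 percentage points (95% interval -5.65 to 0.561). The stretch from 6001 to 11000 and the rest of the circle had differences of opposite sign. In that stretch the plus strand held 68.8% of H2A.B reads (65.0 to 72.4), against 44.5% of IgG ChIP reads (39.3 to 49.9). Over the rest of the circle it held 49.0% (46.9 to 51.1) in H2A.B, against 59.5% (56.6 to 62.3) in IgG ChIP, and the difference was -10.5 points.

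Within positions 6001 to 11000 the plus strand held 75.7%, 68.9% and 46.4% in 5mC replicates 1, 2 and 3, against 77.8% of 9 reads in IgG MeDIP, so the stretch did not split by flow cell. The chromosome 1 stretch did. Its reads were on the plus strand for 75.5% in H2A.B, against 32.6% in IgG ChIP, and for 73.4%, 27.1% and 25.3% in 5mC replicates 1, 2 and 3, against 37.5% of 8 reads in IgG MeDIP. Both libraries with 42 bp reads were above 70% and all libraries with 50 bp reads below 40%. Between H2A.B and IgG ChIP, the antibody cannot be told apart from the flow cell in these values. On the circle without positions 6001 to 11000, the 5mC libraries had 62.1%, 74.3% and 53.85% on the plus strand, against 76.9% in IgG MeDIP.

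**Figure D5:**
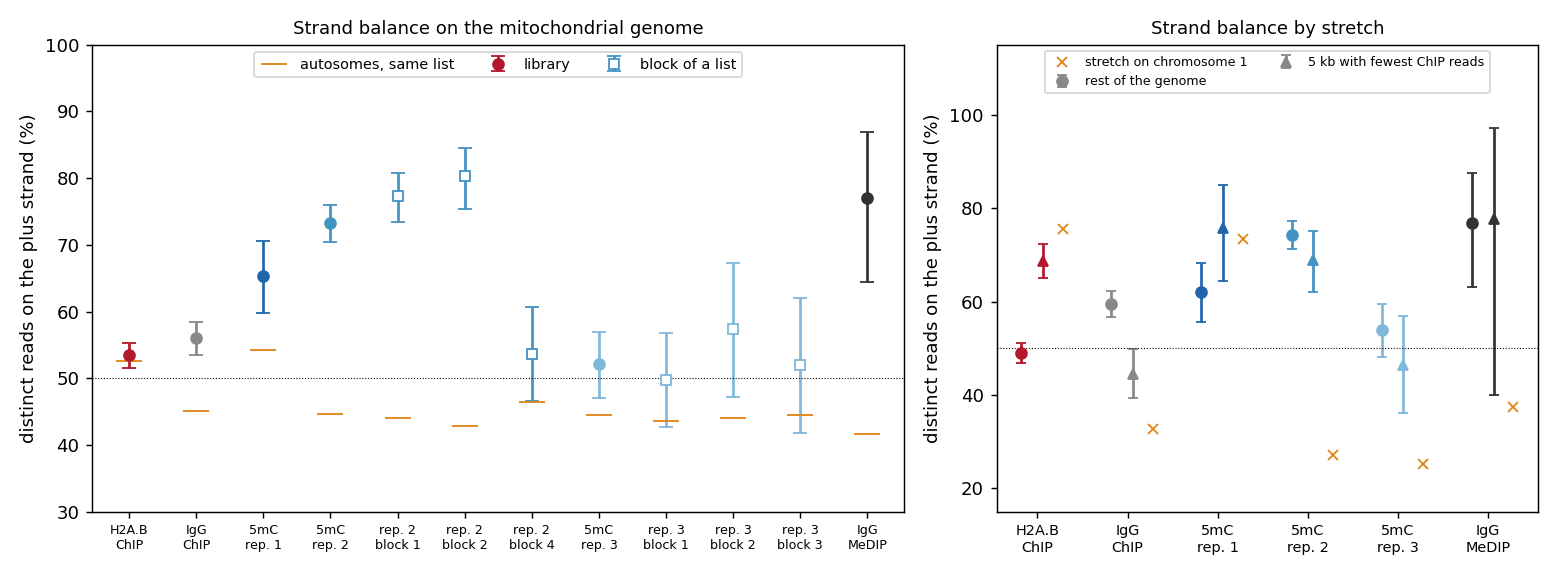
Left, the percentage of distinct mitochondrial reads on the plus strand in each library (filled circles) and in the blocks of the lists of 5mC replicates 2 and 3 (open squares), with exact 95% intervals, beside the same percentage on the autosomes (orange bars); right, the percentage over the rest of the circle (circles), over the 5 kb with fewest ChIP reads (triangles) and at the chromosome 1 stretch (crosses). Blocks 1 and 2 of replicate 2 stand at 77.3% and 80.25% and block 4 at 53.7%, and the crosses are at 75.5% and 73.4% in the libraries with 42 bp reads and between 25.3% and 37.5% in the others.

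Many reads at 1 position were found in 3 of the 4 libraries from the second flow cell and in neither from the first. H2A.B had at most 4 reads at any position and strand of the circle and 5mC replicate 1 at most 3. IgG ChIP had 18 positions with more than 5 reads, which held 163 of its 1968 reads, with up to 22 at position 15214. 5mC replicate 2 had 21 such positions with 207 reads, up to 30 at position 4033, and replicate 3 had 9 with 138 reads, up to 27 at positions 4274 and 8528. In IgG MeDIP, also from the second flow cell but with 66 reads on the circle, no position had more than 2.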

How the data were processed

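The authors deposited 1 list of aligned reads per library, and per the submitters' processing notes Bowtie, FastQC and build mm9 were used. Versions, settings and how reads with several matches were treated: not given in the sources used here. The score column deposited by the authors is 255 in every line and was not used. Per the labels' protocols, ChIP libraries had 20 PCR cycles and MeDIP libraries 15. In all, 9 lines without 6 fields (1 in H2A.B, 8 in 5mC replicate 1) were left out, and so were reads on unplaced sequences and the 201263 IgG MeDIP reads in the list of 5mC replicate 2, 66 of them mitochondrial. The 2979 reads of that list with a blank strand were not on the circle.

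Shares are of distinct reads on chromosomes 1 to 19, X, Y and the mitochondrial genome. Nuclear 100 kb windows were kept where the mean level of the libraries was at least 25% of the median and no library exceeded 10 times its own median (25574 of 26427). Intervals are exact at 95% (Clopper-Pearson; conditional odds ratio for the control region), except that of the strand difference (Newcombe). The rule of size and the intervals were tested on simulated data. Windows were named if among the 5 highest lower or 5 lowest upper bounds of the ChIP ratio, or the 3 fullest of a library; other windows given in the text were chosen after their values were seen. Alternatives were all reads, read midpoints, other windows, scalings, filters and edges, single blocks, and each replicate left out. Python 3.11.15, NumPy 2.4.6, SciPy 1.17.1 and Matplotlib 3.10.9 were used. The members and lists were chosen with earlier results of these data known.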

Additional observations from a re-analysis of the deposited data

Results flagged for a closer look

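The list of 5mC replicate 2 held 66 mitochondrial reads that are also, with the same names and positions, the whole mitochondrial content of IgG MeDIP. They were noticed as a second copy inside the list of another library. That copy was left out of replicate 2, while the reads themselves are the IgG MeDIP values in every comparison of 5mC.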

How the results depend on the processing

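With all reads as deposited, H2A.B stood at 0.138 times IgG ChIP in its mitochondrial share, and the windows called higher and lower were 26 and 31, against 9 and 12. Placed by read midpoint 5 windows were higher, scaled to the library 0 were higher and 221 lower, and with at least 10 reads in both ChIP libraries together (211 windows left) 7 were lower; fewer windows were tested there, and for the others the cause was not tested. The strand difference of H2A.B and IgG ChIP was -10.1 points after subtracting the autosomes and -10.5 without positions 6001 to 11000, both alternatives chosen after seeing the data. In windows of 500 bp rho was 0.792 for H2A.B with IgG ChIP and 0.553 on average between 5mC libraries. Leaving out each 5mC replicate gave 0.749 to 1.07 for the mitochondrial ratio to IgG MeDIP, with the value without replicate 1 above 1, 0.501 to 0.570 for the control region and -18.4 to -7.78 points for the strand. The first block alone of the replicate 2 or 3 list changed no direction of these. No paired analysis was possible because the groups share 1 replicate number. IgG MeDIP, with 61 distinct reads, limits every comparison of 5mC.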
